A study of Mus musculus with 6 samples.

Results

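The potassium channel genes were taken as the autosomal protein-coding genes of the mouse build GRCm38 whose symbol begins with Kcn, followed by letters and a number. Of 97 such symbols, 4 were not protein-coding and 2 lay on the X chromosome, which left 91 of 20665 autosomal coding genes. By their role they fell into 39 voltage-gated pore genes, 15 inward rectifiers, 14 two-pore channels, 8 calcium-activated pore genes, 11 accessory subunits of voltage-gated channels and 4 accessory subunits of calcium-activated channels. The calcium-activated group follows the gene family, and so takes in the sodium-activated relatives Kcnt1 and Kcnt2 and the related Kcnu1. H3K9cr and H3K9ac, in which lysine 9 of histone H3 carries a crotonyl or an acetyl group and which are known from active or permissive chromatin, were mapped by native chromatin immunoprecipitation and sequencing, without crosslinking, in P19 cells. P19 is a mouse embryonal carcinoma line, a tumour line that resembles early embryonic stem cells and can differentiate; here the cells grew in serum-containing proliferation medium, with no other treatment given in the labels. Each mark had 2 biological replicates and was detected with a single antibody, and the 2 input libraries were not analysed here. A channel gene was called occupied when a peak of the authors' list overlapped its span or the 2.5 kb on either side in all 4 libraries. The lists hold only sites past the authors' threshold: where none is listed the mark may still be present, and a peak does not measure expression.

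Potassium channels let potassium leave or enter a cell down its gradient, and so set the resting potential, end action potentials and regulate cell volume, secretion and proliferation. Voltage-gated channels open on depolarisation, calcium-activated channels on a rise of internal calcium, inward rectifiers pass current more easily into than out of the cell, and two-pore channels carry background leak current. Most are known from neurons, heart, muscle, kidney and secretory cells rather than from embryonal carcinoma cells.

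The 8 sequences below come from channel starts with and without peaks. Each is the 250 bases before a RefSeq start (GRCm38.p6, written 5′ to 3′ along the gene's strand, with each CpG dinucleotide in capitals). Marked means that every library had a peak within 1 kb of the start, so the peak need not cover the bases shown. Kcna3, a voltage-gated channel of T lymphocytes and neurons, and Kcnk5, an acid- and volume-sensitive two-pore channel, were marked in all 4 libraries and held 31 and 19 CpG (chr3:107035912-107036161, plus strand; chr14:20181783-20182032, minus strand).
Kcna3, marked: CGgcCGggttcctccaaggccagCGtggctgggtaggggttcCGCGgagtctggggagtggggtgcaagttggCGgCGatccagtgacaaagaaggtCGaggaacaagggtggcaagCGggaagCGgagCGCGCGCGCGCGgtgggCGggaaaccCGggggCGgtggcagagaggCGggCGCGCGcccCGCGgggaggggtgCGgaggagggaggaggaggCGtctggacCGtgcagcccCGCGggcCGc
Kcnk5, marked: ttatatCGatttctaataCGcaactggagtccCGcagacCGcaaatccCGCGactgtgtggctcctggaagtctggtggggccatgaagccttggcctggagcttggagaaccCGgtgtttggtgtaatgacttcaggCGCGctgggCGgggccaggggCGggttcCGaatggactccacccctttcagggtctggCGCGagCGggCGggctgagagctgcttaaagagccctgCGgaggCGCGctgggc
Kcnf1, which encodes an electrically silent modulatory subunit, was marked in all 4 libraries with 1 CpG (chr12:17176889-17177138, minus strand), and Kcnj16, an inward rectifier of kidney and glia, had 3 CpG and no peak (chr11:110967783-110968032, plus strand).
Kcnf1, marked: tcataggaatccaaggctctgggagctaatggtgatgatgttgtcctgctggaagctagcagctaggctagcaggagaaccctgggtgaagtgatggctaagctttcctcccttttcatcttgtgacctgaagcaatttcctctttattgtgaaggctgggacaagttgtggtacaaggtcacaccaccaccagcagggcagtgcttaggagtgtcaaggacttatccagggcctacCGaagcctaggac
Kcnj16, unmarked: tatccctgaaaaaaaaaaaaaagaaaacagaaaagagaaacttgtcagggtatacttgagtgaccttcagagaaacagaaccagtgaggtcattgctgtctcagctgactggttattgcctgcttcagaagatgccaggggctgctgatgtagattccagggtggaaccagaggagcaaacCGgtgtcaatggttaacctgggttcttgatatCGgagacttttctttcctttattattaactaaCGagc
Kcnj6, a G protein-gated inward rectifier, had a marked outer start with 26 CpG (chr16:94997697-94997946, minus strand) and an unmarked inner start with 7 (chr16:94856691-94856940, minus strand).
Kcnj6 outer start, marked: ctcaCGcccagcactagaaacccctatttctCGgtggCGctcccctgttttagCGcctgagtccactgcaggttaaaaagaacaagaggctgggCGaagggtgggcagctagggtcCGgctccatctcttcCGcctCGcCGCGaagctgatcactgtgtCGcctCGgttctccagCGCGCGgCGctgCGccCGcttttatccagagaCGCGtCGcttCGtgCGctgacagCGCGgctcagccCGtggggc
Kcnj6 inner start, unmarked: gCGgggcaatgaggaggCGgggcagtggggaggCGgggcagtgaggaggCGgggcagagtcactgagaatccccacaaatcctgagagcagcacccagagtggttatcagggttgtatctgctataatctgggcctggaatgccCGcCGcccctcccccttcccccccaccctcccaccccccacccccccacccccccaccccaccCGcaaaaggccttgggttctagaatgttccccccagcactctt
Kcnab1, a cytoplasmic beta subunit, went the other way: its outer start (chr3:64948962-64949211, plus strand, 6 CpG) had peaks of H3K9cr alone, and an inner start (chr3:65108764-65109013, plus strand, 2 CpG) was marked in all 4 libraries.
Kcnab1 outer start, H3K9cr peaks: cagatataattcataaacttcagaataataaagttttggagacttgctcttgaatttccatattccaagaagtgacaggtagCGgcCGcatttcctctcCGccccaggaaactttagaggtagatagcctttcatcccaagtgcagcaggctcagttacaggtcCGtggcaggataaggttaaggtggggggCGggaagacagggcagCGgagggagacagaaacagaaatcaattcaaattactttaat
Kcnab1 inner start, marked: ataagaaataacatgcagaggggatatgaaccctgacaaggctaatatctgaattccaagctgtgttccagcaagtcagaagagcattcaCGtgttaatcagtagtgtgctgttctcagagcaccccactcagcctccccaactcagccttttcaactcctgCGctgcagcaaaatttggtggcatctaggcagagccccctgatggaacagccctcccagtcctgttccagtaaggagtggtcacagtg
These sequences were chosen after their values were seen.

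The lists held 28360 and 28345 peaks for H3K9cr and 26096 and 27474 for H3K9ac. Sequencing depth is not given in the sources used here, and no counting interval is attached to the values. The P19 label was checked against marker genes: the 8 pluripotency genes asked for, Pou5f1, Sox2 and Nanog among them, had peaks in all 4 libraries, whereas the fibroblast genes Col3a1, Lum and Postn and the blood cell genes Ptprc and Itgam had none. Peaks also lay at all 7 neuron marker genes that were matched on the autosomes, and at Col1a1, Col1a2, Cd3e, Cd14 and Spi1, so that a peak at a tissue gene was not restricted to genes of this cell type. Each library is 1 bulk sample, in which few cells with much signal and many cells with little cannot be told apart.

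Most potassium channel genes carried both marks in these cells. All 4 libraries had a peak at 75 of the 91 genes (82.4%), against 69.5% of all autosomal coding genes, and 13 (14.3%) had a peak in none, against 27.8%. The remaining 3, Kcnk7, Kcnu1 and Kcnmb3, had peaks in some libraries (all genes 2.65%). No channel gene had both replicates of one mark and neither of the other, a pattern seen for H3K9cr alone at 0.218% and for H3K9ac alone at 0.0339% of all genes.

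**Figure D1:**
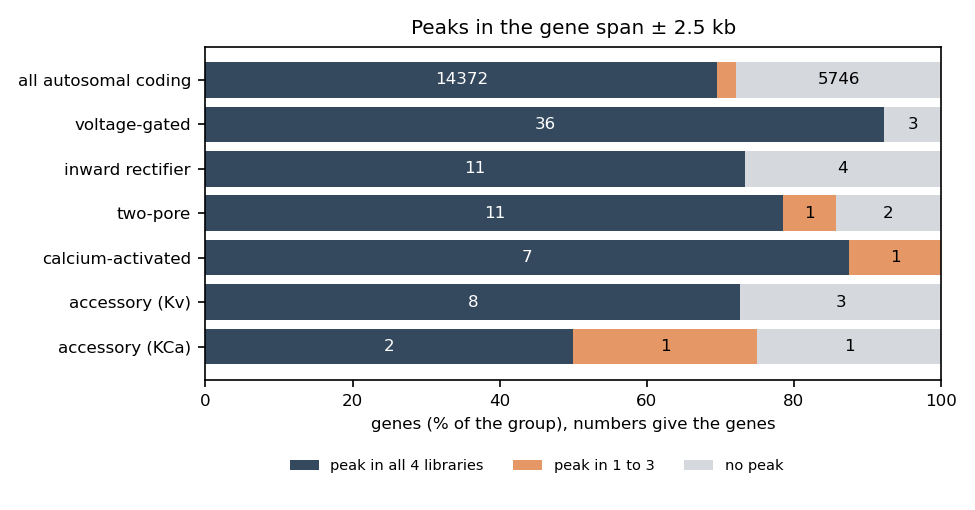
Share of genes (horizontal axis, % of the group) with a peak in all 4 libraries, in 1 to 3 or in none, for all autosomal coding genes and the 6 channel groups; numbers inside the bars are genes. Voltage-gated pore genes have 36 of 39 in the dark class and inward rectifiers 11 of 15.

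The channel groups differed in this count. Voltage-gated pore genes were occupied at 36 of 39 (92.3%), calcium-activated at 7 of 8 (87.5%), two-pore at 11 of 14 (78.6%) and inward rectifiers at 11 of 15 (73.3%), the last close to the 69.5% of all genes. Accessory subunits were occupied at 8 of 11 for voltage-gated and 2 of 4 for calcium-activated channels. The voltage-gated genes without a peak were Kcnv2, a silent subunit known from photoreceptors, Kcng4, another silent subunit, and Kcna10, a channel of inner ear hair cells. The inward rectifiers without one were Kcnj1, the renal potassium secretory channel, Kcnj13, known from the retinal pigment epithelium, Kcnj15 and Kcnj16. The two-pore genes Kcnk16, known from the pancreas, and Kcnk18, known from sensory neurons, had none, as had Kcne1, Kcne3 and Kcne4, small membrane partners of Kcnq1 and related pores, and Kcnmb1, the smooth muscle subunit of the large-conductance channel. These are counts of genes in 1 cell line, with no test of the difference between groups.

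Occupancy rose with gene length over all genes, but the order of the channel groups by median length was not their order by occupancy. The channel genes were long, with a median of 36216 bp against 17491 bp for all genes. By group the median was 120824 bp for calcium-activated, 37066 bp for two-pore, 32507 bp for voltage-gated and 29675 bp for inward rectifier genes. Among genes of at least 100 kb all 23 channel genes were occupied (all genes 91.3%), and from 30 to 100 kb 23 of 27 (85.2%, all genes 82.7%). From 10 to 30 kb the channel genes were below the rest, with 14 of 22 (63.6%, all genes 75.2%). Below 10 kb, 15 of 19 (78.9%) were occupied, against 49.2% of all genes. Voltage-gated genes made up 7 of those 15, namely all 7 of that length, and 8 of 11 voltage-gated genes from 10 to 30 kb were occupied.

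The strongest peak of each channel gene was described by the authors' fold enrichment, the ratio of signal to local background that their peak caller gave, which ranks peaks within 1 list and is not compared here between lists. Library values follow in the order H3K9cr replicates 1 and 2, then H3K9ac replicates 1 and 2. The median occupied channel gene stood at 23.8, 23.4, 20.0 and 28.5, below the median of all occupied genes at 58.5, 57.8, 46.5 and 65.1. In percentiles of each list, these medians were 54.8, 55.4, 51.9 and 56.0 for channel genes and 77.7, 77.8, 75.6 and 77.2 for all genes. The channel genes were more often listed than the average gene, with peaks from the middle of each list. A strongest peak can lie at another coding gene's end. Without such peaks 2443 of the 14372 occupied genes, and 2 of the 75 channel genes, were no longer occupied. Fold enrichment was not compared with such peaks left out.

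**Figure D2:**
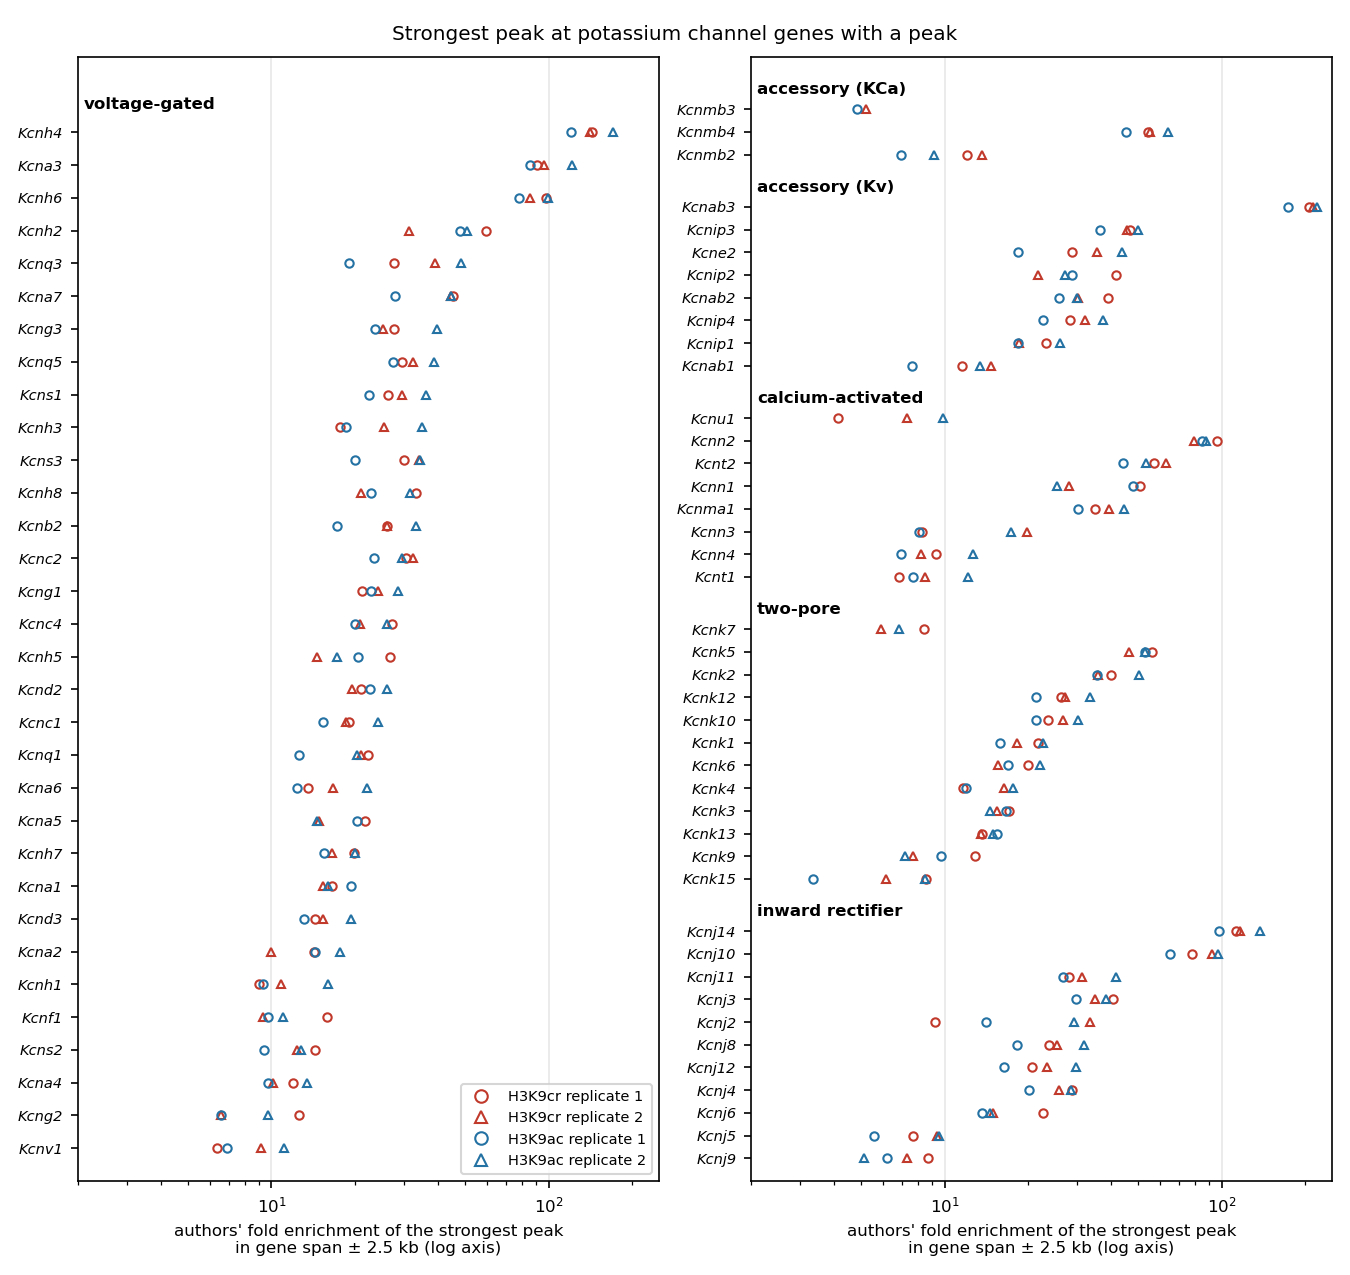
Authors' fold enrichment (log axis) of the strongest peak in the gene span ± 2.5 kb for channel genes with a peak in at least 1 library, grouped by role (a few are not shown); red marks H3K9cr, blue H3K9ac, circles replicate 1 and triangles replicate 2. Most genes lie between 5 and 60, and Kcnab3, Kcnh4 and Kcnj14 stand to the right of the others in their groups.

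Among the voltage-gated pore genes, the occupied ones included Kcna1 to Kcna7, Kcnb2, Kcnc1, Kcnc2, Kcnc4, Kcnd2, Kcnd3, Kcnf1, Kcng1 to Kcng3, Kcnh1 to Kcnh8, Kcnq1, Kcnq3, Kcnq5, Kcns1 to Kcns3 and Kcnv1. Kcna3 had 1 peak in each library, with fold enrichments of 91.1, 96.3, 86.0 and 121, which put it between the 90.1 and 93.4 percentiles of its lists. The peak covered the upstream flank and the first part of the 1968 bp gene record, spanning 107035224 to 107037483 on chromosome 3 in H3K9cr replicate 1, with its summit 206 bp upstream of the start shown above. Kcnh2, the channel of cardiac repolarisation and target of many arrhythmia-inducing drugs, had fold enrichments of 59.4, 31.3, 48.0 and 50.7. Its 6 or 7 peaks covered 11392 bp ± 211 for H3K9cr and 10230 bp ± 284 for H3K9ac (SD, n = 2 each), 29.1% of its window. Both H3K9cr libraries covered more of Kcnh2 than both H3K9ac libraries (11243 and 11541 bp against 10029 and 10431 bp), as they did for the median gene before centring. Kcnh4 and Kcnh6, members of the ether-a-go-go family, had high values (143, 141, 120 and 171, and 97.6, 86.0, 77.9 and 99.9), but these peaks lay at the ends of neighbouring genes, as described below. Within 1 kb of their own RefSeq starts, Kcnh4 had 41.2, 19.7, 35.1 and 20.2 and Kcnh6 had 9.98, 6.69, 7.48 and 6.25. Among the weakest occupied members were the silent subunits Kcnv1, at 6.35, 9.16, 6.91 and 11.1, and Kcng2, at 12.6, 6.55, 6.59 and 9.69.

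The inward rectifiers with peaks were Kcnj2 to Kcnj6, Kcnj8 to Kcnj12 and Kcnj14. Kcnj11, the pore of the ATP-sensitive channel of pancreatic beta cells, had 1 short peak at its end, of 651, 761, 512 and 738 bp, with fold enrichments of 28.1, 31.3, 26.7 and 41.5. Kcnj3, a G protein-gated channel of heart and brain, had 1 long peak of 5767, 5595, 5260 and 5147 bp at fold enrichments of 40.4, 35.0, 29.8 and 38.1. That peak lay inside the gene record, 25609 to 25646 bp from the nearer end and 1437 to 1474 bp downstream of an inner RefSeq start. Kcnj4, a strong rectifier of brain and heart, had 3 or 4 peaks covering 3964, 3169, 3881 and 3142 bp, the strongest at 28.8, 25.9, 20.1 and 28.5. In both marks replicate 1 covered more of Kcnj4 than replicate 2. Kcnj14 (113, 116, 97.9 and 138) and Kcnj10, the potassium-buffering channel of glia (78.4, 92.3, 64.9 and 97.1), led the group by value, with summits at neighbouring genes. Within 1 kb of its own RefSeq start Kcnj10 had 10.3, 13.4, 15.5 and 16.6. Kcnj9 (8.74, 7.31, 6.20 and 5.13) and Kcnj5 (7.69, 9.37, 5.57 and 9.55), both G protein-gated, were the weakest.

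The two-pore genes with peaks were Kcnk1 to Kcnk6, Kcnk9, Kcnk10, Kcnk12, Kcnk13 and Kcnk15. Kcnk5 led with 56.2, 46.1, 52.7 and 52.8, in a single peak of 3397, 3668, 3061 and 3512 bp at its start. Kcnk2, a mechanically gated leak channel, followed with 39.8, 35.7, 35.6 and 50.4, in 1 peak 59200 to 59249 bp inside the record. Its sister gene Kcnk10 had a peak at each of its 2 RefSeq starts. The inner one, 3086 bp into the gene, was the stronger at 23.6, 26.8, 21.3 and 30.2, against 9.88, 17.1, 11.4 and 16.7 at the outer one. Kcnk12, a silent or weakly conducting two-pore gene, had 1 peak of 3577 bp ± 127 in H3K9cr and 3434 bp ± 191 in H3K9ac (SD, n = 2 each). Kcnk15 had 8.60, 6.14, 3.34 and 8.47. These were the lowest strongest peaks of the occupied two-pore genes in each library but H3K9ac replicate 2, where Kcnk9 was lower at 7.20.

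Calcium-activated channels included the strongest internal peak. Kcnn2, a small-conductance channel that shapes the afterhyperpolarisation of neurons, had fold enrichments of 96.3, 79.2, 84.9 and 87.7 at a peak of 3959 to 4345 bp. It lay 126854 to 126871 bp inside the gene record, within 1 kb of an end of the noncoding gene Gm32139, while a second peak at the record's end reached 17.1, 17.5, 14.4 and 19.4. Kcnt2, a sodium-activated channel, had 57.2, 62.9, 44.2 and 53.3 at its start. Kcnt2 also had a weak peak of H3K9cr alone 184185 and 184157 bp inside the gene, at 5.83 and 4.51 and in neither H3K9ac list. Kcnma1, the large-conductance channel opened by voltage and calcium, had 34.9, 39.2, 30.2 and 44.5 at its start, in a gene of 712823 bp of which peaks covered 0.315% of the window. Kcnn1, another small-conductance channel, had 50.7, 28.2, 47.7 and 25.4 and covered 6714, 7267, 5289 and 6085 bp in 3 to 5 peaks. Both H3K9cr libraries covered more of Kcnn1 than both H3K9ac libraries. Kcnn3, Kcnn4 and Kcnt1 lay lower, between 6.82 and 19.8.

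Of the accessory genes, those of voltage-gated channels with peaks were Kcnab1 to Kcnab3, Kcnip1 to Kcnip4 and Kcne2, and those of calcium-activated channels Kcnmb2 and Kcnmb4. Kcnmb4, the neuronal subunit of the large-conductance channel, had 1 peak at 54.2, 55.0, 45.1 and 63.8, covering 2552, 2407, 2370 and 2589 bp. Kcnip3, a calcium-binding subunit that is also known as a transcriptional repressor, had a peak at its end (46.6, 45.7, 36.4 and 50.0) and a longer one of 3670 to 3990 bp at an inner RefSeq start (37.9, 34.5, 23.6 and 36.6). Kcnab2, a beta subunit with an oxidoreductase fold, had a start peak at 39.0, 24.7, 25.9 and 24.4. A short peak of 346 to 366 bp, 42276 to 42355 bp inside Kcnab2, reached 31.7, 30.3, 24.8 and 30.1 and lay at no RefSeq start of the gene. Kcnip2, which supports the transient outward current of the heart, was the accessory gene with most coverage, at 7018 bp ± 957 for H3K9cr and 5708.5 bp ± 33.2 for H3K9ac (SD, n = 2 each). Kcnab3 had the highest fold enrichments of all channel genes, 207, 213, 174 and 221, from a peak at other genes.

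The summits of these peaks were placed relative to the ends of the channel genes and of their neighbours. Summit positions were counted for channel genes only, so whether they differ from those at other genes was not tested. For 41 of the 75 occupied genes the strongest peak had its summit within 1 kb of an end of the gene itself, and of no other coding gene, in all 4 libraries. For 16 it lay inside the gene, over 1 kb from any coding gene end, and 11 differed between libraries or lay elsewhere. For 7 it lay at another coding gene's end: Kcnab3 (Cntrob and Trappc1), Kcnh4 (Rab5c), Kcnj14 (Cyth2), Kcnh6 (Dcaf7), Kcnj10 (Pigm), Kcne2 (Smim11) and Kcnip2 (Armh3). The Kcnip2 summit was also 42 to 101 bp from an end of Kcnip2, so that it lay at an end of both genes, while the other 6 were over 1 kb from their channel gene. The highest fold enrichments in the family, at Kcnab3, Kcnh4 and Kcnj14, were thus at ends of other genes, and Kcna3 was the highest with a summit at its own end. At Kcne2, a partner of cardiac and gastric pores, the peak began near the edge of the window and covered 67, 81, 30 and 71 bp of it. With all peaks at other coding gene ends left out, a choice made after seeing the data, Kcne2 and Kcnj14 were no longer occupied. The count was then 73 of 91 (80.2%), against 57.7% of all genes, and voltage-gated genes stayed at 36 of 39. Over all 132 to 142 peaks that a library had at channel genes, 42.3% to 45.5% were at the gene's own end only and 10.0% to 12.0% at another coding gene's end, shared ends included. A further 9.86% to 10.7% were within 1 kb of an inner RefSeq start of the gene, and 30.3% to 33.1% inside the gene without such a start within 1 kb. The latter include internal peaks of genes that lack a RefSeq start here, as only 67 of the 91 had one, so their distance from starts is not known.

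Over the 75 occupied genes the strongest peaks overlapped between libraries of different marks at 70 (93.3%) in each of the 4 pairings and between replicates at 69 (92.0%). For all occupied genes these shares were 94.7% to 97.2% and 94.8% to 94.9%. The median distance between summits of overlapping peaks was 33 bp between H3K9cr replicates and 43 bp between H3K9ac replicates. It was 28 to 46.5 bp between marks, a range that takes in both replicate distances. For all genes the medians were 16 to 21 bp.

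Transcription starts were available from RefSeq (GRCm38.p6) for 67 of the 91 channel genes, 92 starts in all. A start was called marked when every library had a peak within 1 kb. Marked starts numbered 61 (66.3%), against 63.1% of 20085 starts of all genes, and 50 of the 67 genes (74.6%) had at least 1, against 64.1%. By group, 28 of 30 voltage-gated starts were marked, 5 of 6 calcium-activated, 11 of 15 two-pore, 8 of 17 inward rectifier, 7 of 20 accessory starts of voltage-gated and 2 of 4 of calcium-activated channels. The order of the 4 pore groups by starts matched that by gene windows, with voltage-gated genes highest and inward rectifiers lowest. Both counts draw on the same peaks, so the match is not separate support. In the rectifiers Kcnj16 alone gave 4 of the 9 unmarked starts. Starts of 1 gene share a locus and are not independent.

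**Figure D3:**
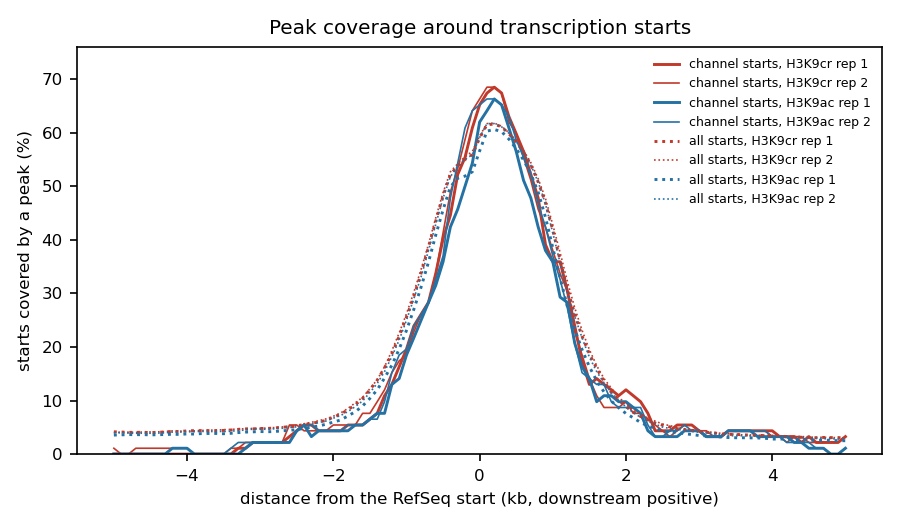
Share of starts covered by a peak (vertical axis, %) against distance from the RefSeq start (kb, downstream positive), for 92 channel starts (solid) and 20085 starts of all genes (dotted) in each library; thick lines are replicate 1. At the start itself 62.0% to 66.3% of channel starts and 56.6% to 59.4% of all starts are covered, and the channel curves lie lower 1 kb upstream.

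Coverage extended further downstream than upstream of the starts: 40.2%, 41.3%, 35.9% and 37.0% of channel starts were covered at 500 bp upstream and 59.8%, 59.8%, 56.5% and 58.7% at 500 bp downstream. At the start base, 65.2%, 66.3%, 62.0% and 65.2% of channel starts were covered, against 59.0%, 59.4%, 56.6% and 59.1% of all starts. At 1 kb upstream the channel starts were lower (19.6%, 18.5%, 18.5% and 19.6%, against 25.6%, 26.2%, 23.1% and 25.0%). At 1 kb downstream they were also slightly lower, at 35.9% to 38.0% against 38.5% to 42.8%. The nearest summit of the 61 marked starts lay a median of 158, 164, 125 and 166 bp downstream, compared with 259 to 282 bp for all marked starts. It was downstream at 60.7% to 63.9% of channel starts and at 74.1% to 74.9% of all.

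CpG content differed between marked and unmarked channel starts as it did for all genes. The 61 marked starts had a median of 14 CpG in the 250 bases upstream and the 27 unmarked starts a median of 4. For all genes the medians were 17 and 2. All 16 channel starts with 20 or more CpG were marked (all genes 97.6%), and so were 21 of 22 with 10 to 19 (95.5%, all genes 94.4%). The exception was an inner start of Kcne3. Below 10 CpG, 24 of 54 channel starts were marked (44.4%, all genes 28.5%), such as those of Kcna5, Kcna7, Kcnc2, Kcnf1, Kcnk1 and Kcnq5. The highest counts were 43 at Kcnmb4, 41 at Kcng3 and 35 at Kcnj4, each marked. The motif GGGCGG, searched on both strands, was present upstream of 34 of 61 marked (55.7%) and 4 of 27 unmarked channel starts (14.8%). Over all genes it was present upstream of 62.7% of marked, 8.73% of unmarked and 43.4% of all starts. CCAAT, searched likewise, was present at 31.1% and 29.6% of channel starts, against 35.1% of marked and 35.8% of unmarked starts of all genes. GGGCGG holds a CpG, so its count and the CpG count are not separate measures, and a match is a description of letters and not a bound site.

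**Figure D4:**
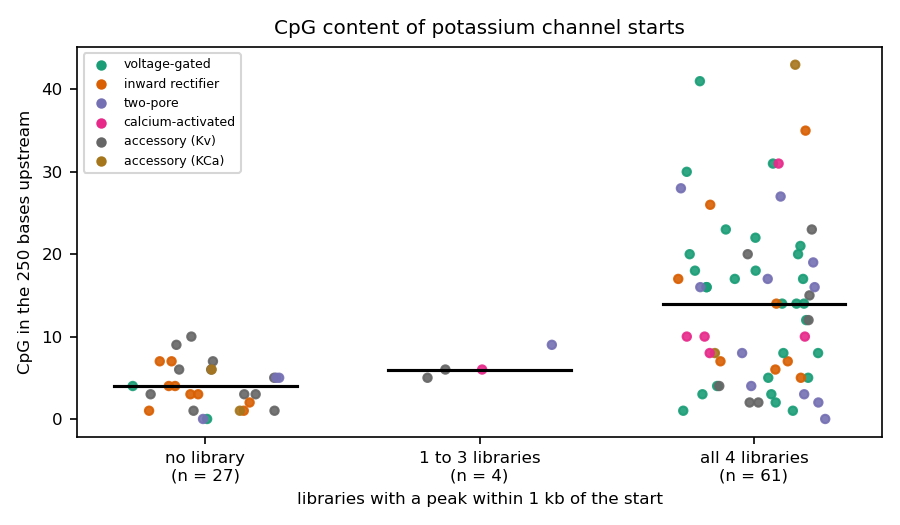
Number of CpG dinucleotides in the 250 bases upstream (vertical axis) of 92 channel starts, by the libraries with a peak within 1 kb; points are starts, coloured by channel group, shifted sideways for visibility, and black bars are medians. The medians are 4 for unmarked and 14 for fully marked starts, and no unmarked start exceeds 10.

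In 5 of the 15 channel genes with several starts, some were marked in all libraries and others in none, as in 657 of 2660 such genes overall. Kcnk2 had 3 adjacent inner starts marked by 1 peak (28, 27 and 2 CpG) and an unmarked outer start (5 CpG). Kcnip1, a subunit of the transient outward channel, had a marked inner start 149662 bp from the nearer end of its record (12 CpG, fold enrichments 23.3, 18.5, 18.4 and 26.0), while its outer start and another inner one had no peak. Kcnab2 was marked at its outer start (20 CpG) and not at 2 inner starts (3 and 5 CpG). The Kcnj6 outer start, shown above, had weak peaks of 9.17, 4.86, 5.57 and 4.89. In Kcnab1 the inner start had 11.6, 14.7, 7.63 and 13.4, and a start further in had no peak. Its outer start had H3K9cr peaks of 6.80 and 5.21 and none of H3K9ac, below the median of their lists. A weak peak missing from 2 lists is not a measured difference between marks.

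The partly occupied genes also had weak peaks. Kcnk7, a two-pore gene not known to carry current alone, had 8.42 and 5.90 for H3K9cr, none in H3K9ac replicate 1 and 6.84 in H3K9ac replicate 2, all in a 3514 bp gene. Kcnu1, the sperm-specific channel, had 4.14 and 7.29 for H3K9cr at the end of its neighbour Ash2l. In H3K9ac replicate 2 it had a peak at the same place (6.04) and another 27791 bp inside the gene (9.90), and none in H3K9ac replicate 1. Kcnmb3, an accessory subunit of the large-conductance channel, had 5.21 in H3K9cr replicate 2 and 4.84 in H3K9ac replicate 1, inside the gene. These values reached at most the 30.1 percentile of their lists. H3K9ac replicate 1, the shortest list, lacked a peak at 2 of these 3 genes, and without it Kcnk7 and Kcnu1 would count as occupied.

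The difference between marks was tested on covered length, the bases of a gene window under peaks, as log2(bp + 100) centred on each library's median and fitted with limma over the 14372 genes occupied in all libraries. At an adjusted p of 0.05, limma called 0% of all genes in either direction, 0 of them channel genes. The smallest adjusted p was 0.583 over all genes and 0.605 among the 75 channel genes, and 851 genes (5.92%) and 8 channel genes (10.7%) had an unadjusted p under 0.05. The median difference, H3K9cr minus H3K9ac, was 0.018 for channel genes and -0.008 for all genes, and 39 of the 75 (52%) were positive, against 47%. Without centring, 84% of channel genes and 81.3% of all genes were positive, the median of all genes being 0.073. The number of channel genes under an unadjusted 0.05 was 4 (5.33%, all genes 4.27%) without H3K9cr replicate 1, 5 (6.67%, all genes 4.54%) without H3K9cr replicate 2, 8 of 77 (10.4%, all genes 6.31%) without H3K9ac replicate 1 and 13 (17.3%, all genes 11.4%) without H3K9ac replicate 2.

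**Figure D5:**
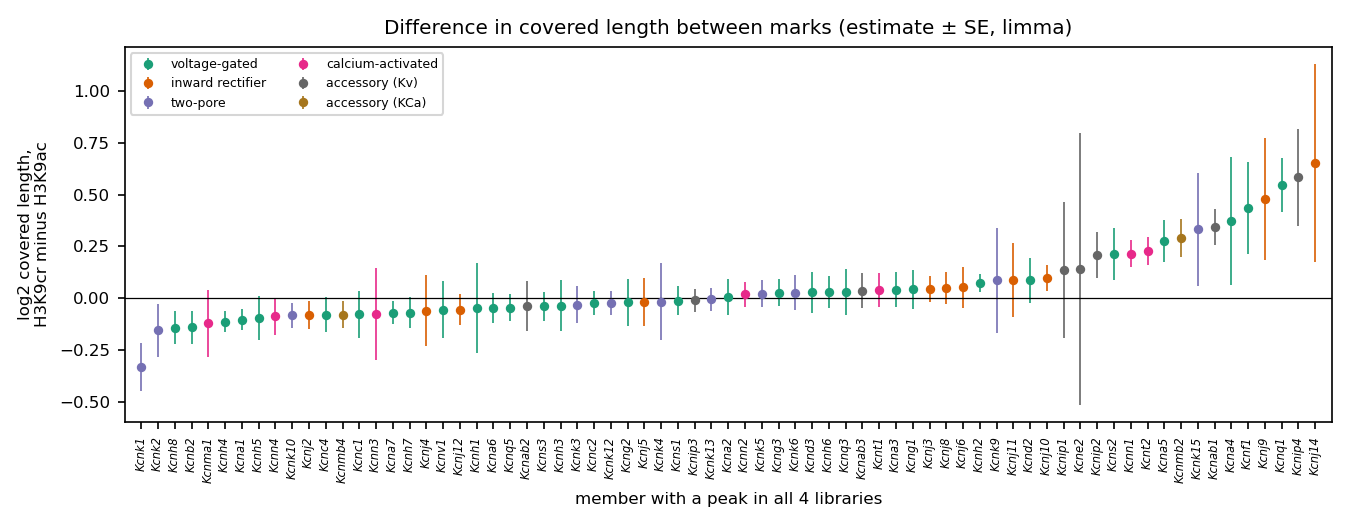
Estimated log2 difference in covered length, H3K9cr minus H3K9ac (vertical axis, estimate ± SE from limma), for occupied channel genes in order of the estimate, coloured by group (a few are not shown). Most lie within 0.25 of the line at 0, and Kcnk1 is the lowest at -0.33 with an adjusted p of 0.81.

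The channel genes with the smallest unadjusted p in each direction were Kcnq1 and Kcnab1, longer for H3K9cr, and Kcnk1 and Kcnh4, longer for H3K9ac. Kcnq1, the slow cardiac and inner ear channel, was covered over 2289, 2413, 1265 and 1747 bp, so that the marks did not overlap. Its difference was 0.55 (SE 0.13) with a limma adjusted p of 0.605. It fell to 0.23 with peaks of -log10 q of at least 5 and to 0.24 with equal numbers of peaks, and rose to 0.72 without H3K9ac replicate 2. Beside the main peak, 47255 to 47316 bp inside the gene, a weak second peak 17259 to 17873 bp inside was listed for both H3K9cr replicates (5.65 and 3.60) and H3K9ac replicate 2 (4.74), and not for H3K9ac replicate 1. Kcnab1 was covered over 1559, 1640, 1072 and 1269 bp, a difference of 0.34 (SE 0.09, limma adjusted p 0.629). Kcnk1, a background leak channel, was covered over 1122, 1314, 1530 and 1399 bp, the marks again not overlapping, with a difference of -0.33 (SE 0.12, limma adjusted p 0.81). Kcnh4 (4358, 4255, 4238 and 4585 bp) differed by -0.11 (SE 0.05, limma adjusted p 0.888), and its marks overlapped. Group medians ran from -0.017 for the 11 two-pore and -0.007 for the 36 voltage-gated genes to 0.018 for the 7 calcium-activated, 0.049 for the 11 inward rectifier and 0.138 for the 8 accessory genes of voltage-gated channels. The p-values set each difference against the spread between 2 replicates per mark, which limma adjusts toward that of the other genes.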

How the data were processed

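H3K9cr and H3K9ac were measured by native ChIP-seq in P19 cells, with 2 replicates per mark, grouped and numbered by their titles. The deposited files are 4 peak lists, 1 for each precipitated library. Alignment and peak calling with Bowtie2 2.4.1 and MACS2 2.2.7.1 on GRCm38 are named, per the submitters' processing notes, without options or the pairing of inputs. Each peak has, per the file headers, a position, length and summit, its pileup (coverage signal at the summit), a -log10 p-value, a -log10 q-value and a fold enrichment, a ratio of signal to local background. The authors' per-peak values served only to rank, filter or describe peaks within a list, and the smallest deposited -log10 q-value ranged from 2.02 to 2.06. Precision is limited by 2 libraries per mark and an unknown depth.

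Overlaps of at least 1 bp with gene spans from RefSeq were computed in Python 3.11.15 (numpy 2.4.6, pandas 2.3.3, matplotlib 3.10.9), and covered length was fitted with limma 3.58.1 in R 4.3.3 by mark over all occupied genes, with Benjamini-Hochberg adjustment. Both steps were tested on simulated data. Starts and upstream sequences came from RefSeq; the channel genes without one included Kcna1, Kcnab3, Kcnb2, Kcne1, Kcng1, Kcng2, Kcnh3, Kcnj11, Kcnj14, Kcnk3, Kcnk6, Kcnk9, Kcnn2, Kcnq1, Kcnq3, Kcns2, Kcnt1, Kcnu1, Kcnv1 and Kcnv2. The members, groups, gene lists and tests were chosen with earlier results of these data known. Values are given for the 4 occupied genes of each group (accessory genes as 1) with the highest fold enrichment in their weakest library and the 2 with the longest coverage, for partly occupied genes, for genes whose strongest peak is at another gene's end and for the 2 genes per direction with the smallest unadjusted p; other named genes were chosen after their values were seen. Some genes that the rule or the lists take are not reported here. Alternatives were the gene span alone, 10 kb on either side, gene ends only, a stricter q-value, summits, equal numbers of peaks, a pseudocount of 500 bp, no centring, genes with a peak in any library, a replicate block and leaving out each library.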

Additional observations from a re-analysis of the deposited data

How the results depend on the processing

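The number of occupied channel genes was 73 with the gene span alone (80.2%, all genes 67.9%), 80 with 10 kb on either side (87.9%, all genes 73%), 68 with 2.5 kb around either end only (74.7%, all genes 66.1%), 74 with a stricter q-value or with summits only (81.3%, all genes 69%), 75 with equal numbers of peaks (82.4%, all genes 69.3%), and 75 to 77 without any 1 library (all genes 69.6% to 70.3%). Under these settings voltage-gated genes were occupied at 87.2% to 92.3%, calcium-activated at 75% to 100%, two-pore at 71.4% to 85.7% and inward rectifiers at 66.7% to 80%. The inward rectifiers stood at 66.7% both with the gene span alone (all genes 67.9%) and with gene ends only (all genes 66.1%). Channel genes with H3K9cr alone numbered 0 in the main setting (all genes 0.218%) and 1 (Kcnab1) with 2.5 kb around either end only (1.1%, all genes 0.237%). Without any 1 library they numbered 0 to 2, the 2 (Kcnk7 and Kcnu1) being without H3K9ac replicate 2 (2.2%, all genes 0.934%). Marked starts numbered 61 (66.3%) within 500 bp (all starts 62.3%) and within 2.5 kb (all starts 64.7%) as well, both distances chosen after seeing the data. Limma called 0 genes under every alternative run, with the smallest adjusted p between 0.31 and 0.999.

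The replicate numbers in the labels are shared by the marks. With a replicate block limma called 0 genes (smallest adjusted p 0.737), and 903 genes had an unadjusted p under 0.05. Differences between replicates correlated between marks across genes (r = 0.131 over 14372 genes and 0.243 over 75 channel genes, genes not being independent). Over all occupied genes, the strongest peaks overlapped at 96.9% and 97.2% between same-numbered libraries of different marks. Between differently numbered libraries of different marks the share was 94.7% in each pairing. With only 2 pairs, whether same-numbered libraries share more than a number was not tested. An unknown depth limits statements on missing peaks.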

Other observations

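Other genes of excitability and potassium handling were described from lists chosen with earlier results of these data known. Partner proteins of potassium channels, such as the sulphonylurea receptors Abcc8 and Abcc9, the membrane peptidase-like subunits Dpp6 and Dpp10 and the calmodulin genes, were occupied by both marks in all libraries at 20 of 22 genes (90.9%, against 69.5% of all autosomal coding genes). Abcc8, the partner of Kcnj11, had authors' fold enrichments of 30.9, 32.2, 23.5 and 35.0 in H3K9cr replicates 1 and 2 and H3K9ac replicates 1 and 2. The partner with the highest values was Ank2, an ankyrin that anchors ion channels and pumps, at 149, 174, 115 and 181. Kcnrg, a soluble regulator of channel assembly, had no peak, and Lrrc52, a subunit of the sperm channel of Kcnu1, had peaks in 3 libraries.

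Against the same 69.5% of all genes, calcium channel genes were occupied at 17 of 17 (100%) and sodium channel genes at 11 of 14 (78.6%). Median gene length was 59885 bp for partners, 159341 bp for calcium and 103050.5 bp for sodium channel genes, against 17491 bp for all genes. Of all genes of at least 100 kb, 91.3% were occupied, and the lists were not compared at matched length. Scn10a and Scn11a, known from pain-sensing neurons, had no peak. Scn4a, the skeletal muscle channel, had weak peaks in 3 libraries. The pacemaker and cyclic nucleotide-gated channels were occupied at 7 of 9 (77.8%), with Hcn4, the pacemaker channel of the heart, at 67.6, 55.2, 59.4 and 63.2. Cngb3, a cone photoreceptor subunit, had peaks of H3K9cr alone (5.19 and 6.84), as had Atp1a4, the sperm sodium pump (3.90 and 4.39). These were below the list medians of 19.7 and 18.7, and 0.218% of all genes had H3K9cr alone. As at Kcnab1, a weak peak missing from 2 lists is not a measured difference between marks. Of the pump and potassium-chloride carrier genes 10 of 13 (76.9%) were occupied, and the renal carrier Slc12a1 had no peak. Limma called 0 genes of these lists for a difference in covered length, with an unadjusted p under 0.05 at 2 of 20 partners, 2 of 17 calcium channel genes and 1 of 10 pump and carrier genes, and at 0 of 11 sodium and 0 of 7 pacemaker and cyclic nucleotide-gated channel genes, against 5.92% of all genes.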
